A study of Mus musculus with 12 samples.

Results

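Claudins are the membrane proteins that form the strands of tight junctions, the seals between neighbouring epithelial or endothelial cells. 10 members of the family were followed here, chosen by name: Cldn1, Cldn2, Cldn3, Cldn4, Cldn5, Cldn7, Cldn8, Cldn15, Cldn18 and Cldn23. All 10 had a probe set (the group of oligonucleotides that reports 1 transcript) among the 19 claudins and 11807 genes that could be named on the array. RNA from colon and from stomach of 16 week old C57BL/6 mice that were knockout (KO), heterozygous (HET) or wild type (WT) for Spdef was hybridised to 12 Affymetrix mouse expression arrays. Colon KO, colon HET, colon WT, stomach KO, stomach HET and stomach WT had 2 arrays each. Spdef encodes an ETS transcription factor known for its part in the maturation of goblet and other secretory cells. The labels name no other allele and no treatment. Whether the 2 arrays of a group came from separate animals, whether animals were pooled, their sex and the construction of the allele are not given in the sources used here.

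Some claudins, such as claudin 2 and claudin 15, form pores that let small cations through the space between cells. Others tighten that space, and the set of claudins a cell makes differs along the gut and gives each segment its own permeability. The stomach is known for a splice form of claudin 18 that helps keep acid in the lumen, and the distal colon for claudins that hold back sodium.

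The members lie on 6 mouse chromosomes in the RefSeq annotation of GRCm38.p6. Cldn3, Cldn4 and Cldn15 are on chromosome 5, where Cldn4 (chr5:134945123-134946934) and Cldn3 (chr5:134986214-134987476) are neighbours. Cldn1, Cldn5 and Cldn8 are on chromosome 16, Cldn7 on chromosome 11, Cldn18 on chromosome 9, Cldn23 on chromosome 8 and Cldn2 on chromosome X. The files place no probe set on a genome.

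Start-site sequences are shown for the claudin that was high in stomach, Cldn18, with both of its annotated starts, and for Cldn2, a pore claudin that was high in colon. Each run is 300 bases, from 250 bases before to 50 bases after a RefSeq start of GRCm38.p6, written 5′ to 3′ on the gene's strand. Capitals mark matches to the letters searched.
Cldn18, chr9:99717218-99717517, minus strand: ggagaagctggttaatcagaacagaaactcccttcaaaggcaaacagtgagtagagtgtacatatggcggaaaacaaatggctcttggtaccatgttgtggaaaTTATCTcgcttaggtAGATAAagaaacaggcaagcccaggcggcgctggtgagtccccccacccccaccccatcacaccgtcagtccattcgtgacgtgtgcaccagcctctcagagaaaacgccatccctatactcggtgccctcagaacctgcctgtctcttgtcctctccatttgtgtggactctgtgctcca
Cldn18, chr9:99710014-99710313, minus strand: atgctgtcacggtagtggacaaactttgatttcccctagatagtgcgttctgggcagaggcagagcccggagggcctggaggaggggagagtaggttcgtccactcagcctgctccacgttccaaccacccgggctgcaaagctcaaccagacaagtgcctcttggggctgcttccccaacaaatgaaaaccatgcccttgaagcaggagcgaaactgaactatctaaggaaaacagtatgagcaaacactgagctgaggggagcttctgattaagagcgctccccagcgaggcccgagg
Cldn2, chrX:139800558-139800857, plus strand: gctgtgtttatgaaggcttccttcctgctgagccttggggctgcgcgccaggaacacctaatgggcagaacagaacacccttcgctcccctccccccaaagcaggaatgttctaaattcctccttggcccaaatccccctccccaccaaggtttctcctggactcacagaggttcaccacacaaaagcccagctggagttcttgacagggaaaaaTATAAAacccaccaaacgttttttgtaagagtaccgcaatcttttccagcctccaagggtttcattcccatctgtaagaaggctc
The first Cldn18 window held AGATAA 131 bases before the start and its reverse complement TTATCT 146 bases before it. These are the letters of a GATA motif, which 11.2% of all 32851 RefSeq windows of this length held on either strand. The second Cldn18 window held no match to any motif searched. The Cldn2 window held TATAAA, the letters of a TATA box, 35 bases before the start, and 13.6% of all windows held it on either strand. RefSeq windows were found for 8 of the 10 members, 10 windows in all. None of the 10 held the letters of a CDX motif (TTTATNG, in 10.9% of all windows), of an HNF4 motif (CAAAGTCCA, in 0.475%) or of the GGATGT core used here for SPDEF (in 11.1%), each searched on both strands. The last 5 letters of the TATA box, ATAAA, are also part of the CDX motif's reverse complement, CNATAAA. The GC content of the 10 windows ran between 51.3% and 62.3%, against a median of 52.7% over all windows. A match describes letters in a window, and the arrays measured neither binding nor which Cldn18 start was in use.

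Levels are log2(intensity + 16) after quantile normalization, and differences between groups are on that scale. A level of 6.53, an intensity of 76.5 and the 40th percentile of every array, served as the limit under which a level was taken as dim. A gene was tested in a tissue if at least 2 of its arrays reached that limit. Where a group's mean was dim, its arrays were raised to the limit and the fold is given as "at least". Levels of different probe sets are not comparable, so each claudin is set only against itself.

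The array labelled colon WT 2 stood apart from the other colon arrays, with a mean correlation across genes of 0.9268 with them, against 0.9544 to 0.968 for the others and 0.9729 to 0.9756 among stomach arrays. Its mean level over 11 small intestine genes was 11.81, against 5.88 to 7.20 on the other colon arrays. Its mean over 11 absorptive colonocyte genes was 10, against 11.59 to 12.15 on the other colon arrays and 5.54 to 5.77 on stomach arrays. The 7 parietal cell genes averaged 6.19 on colon WT 2 and 7.70 to 8.04 on the other colon arrays, against 11.98 to 12.27 on stomach arrays. In that list, Car2 read 7.31 on colon WT 2 against 13.02 to 13.42 on the other colon arrays. Aqp4 read 7.71 against 11.24 to 13.21. The colonocyte and parietal means set apart the arrays labelled stomach and colon, and whether they tell colon from small intestine was not tested. The gut segment behind the array labelled colon WT 2 was not tested. Colon KO 2 had the highest mean over 6 B and plasma cell genes, 9.05 against 6.65 to 8.10, and over 8 exocrine pancreas genes, 6.77 against 4.83 to 5.27. It had the lowest mean over 5 adipose genes, 6.75 against 8.53 to 9.60, and the lowest small intestine mean, 5.88. Spdef, the targeted gene, read 9.08 and 9.25 in colon KO, 10.27 and 9.81 in colon HET, and 10.97 and 8.74 in colon WT. It read 8.86 and 8.63 in stomach KO, 9.06 and 8.94 in stomach HET, and 9.19 and 8.96 in stomach WT. Spdef passed no test between genotypes (limma, Benjamini-Hochberg adjusted p = 0.6186 in colon and 0.9995 in stomach for KO minus WT), and colon WT 2 read below both colon KO arrays. The position of its probe set relative to the deleted part is not given in the sources used here, so Spdef does not check the labels. The 10 epithelial marker genes had a median difference of 0.12 between colon and stomach. In colon 5 were higher and 1 lower, beside 21.4% higher and 27.3% lower over all genes tested. Their mean level was 12.55 to 12.70 on colon arrays and 11.51 to 11.57 on stomach arrays, a gap in which the brush border gene Cdhr5, at 12.29 to 13.23 in colon and 6.44 to 7.61 in stomach, has a large share.

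The first question was how claudin expression differed between colon and stomach. 6 claudins were higher in colon (Cldn2, Cldn3, Cldn4, Cldn7, Cldn15 and Cldn23), 1 was lower (Cldn18), 2 did not pass the test (Cldn5 and Cldn8) and 1 was dim on all 12 arrays (Cldn1). For the 7 that differed, all 6 colon arrays lay on one side of all 6 stomach arrays. Across all 8393 genes tested, 48.8% passed (21.4% higher and 27.3% lower in colon), and arrays of the tissues did not overlap for 30%. The 7 claudins that passed are also those that cleared the limit in 1 tissue alone. Of the 1015 genes of that kind, 70.4% passed. The count of 7 of 9 tested, and the lack of overlap of their arrays, are therefore read here as a description of where these claudins were expressed. The median difference was 4.27 over the 9 tested claudins, 3.95 with dim arrays raised to the limit, and -0.05 over all genes tested. In these bulk samples, fewer cells of a type and less RNA per cell cannot be told apart.

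**Figure D1:**
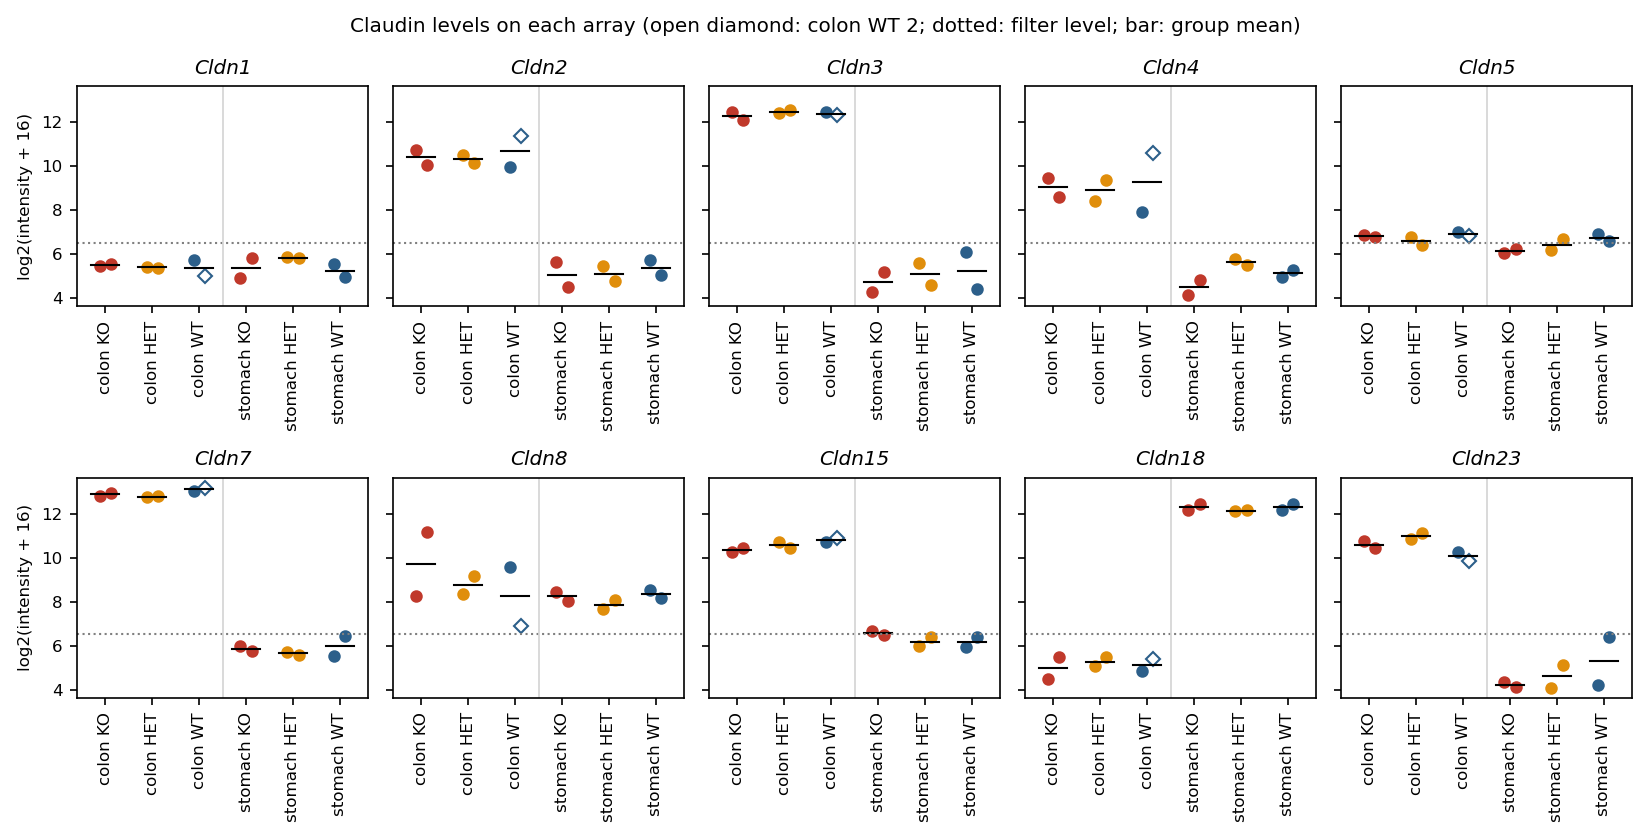
Level of each claudin, log2(intensity + 16), on each of the 12 arrays, with colon groups left of stomach groups and KO, HET and WT from left to right within a tissue. Filled circles are arrays, the open diamond is the array labelled colon WT 2, bars are group means and the dotted line is the limit of 6.53. 6 claudins lie high in colon and Cldn18 lies high in stomach.

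Of the pore-forming claudins, Cldn2, a channel for sodium and water that is best known from leaky epithelia, had levels of 10.76 and 10.08 in colon KO, 10.51 and 10.17 in colon HET, and 9.98 and 11.39 in colon WT. Its stomach levels were 5.64 and 4.52 in KO, 5.46 and 4.80 in HET, and 5.74 and 5.07 in WT. Every colon array was high and every stomach array was dim, with colon WT 2 the highest of all. The difference was 5.28 (SE 0.30, limma adjusted p = 9.654e-07), at least 15.5-fold higher in colon. The second Cldn2 probe set gave 3.92 (SE 0.31, adjusted p = 8.737e-06).

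Cldn15, the cation pore whose loss in mice enlarges the small intestine, had levels of 10.29 and 10.46 in colon KO, 10.72 and 10.45 in colon HET, and 10.73 and 10.89 in colon WT. In stomach it had 6.70 and 6.52 in KO, 6.00 and 6.40 in HET, and 5.93 and 6.41 in WT. The colon arrays lay together, and 5 of the 6 stomach arrays were dim, with stomach KO 1 just above the limit. Cldn15 was higher in colon by 4.27 (SE 0.13, adjusted p = 8.13e-09), at least 16.4-fold.

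Cldn7, a claudin of the lateral membrane whose loss in mice damages the intestinal lining, had levels of 12.82 and 12.95 in colon KO, 12.76 and 12.82 in colon HET, and 13.05 and 13.20 in colon WT. Its stomach levels were 6.00 and 5.76 in KO, 5.74 and 5.58 in HET, and 5.53 and 6.46 in WT. As deposited, its intensities ran between 6399 and 9725 in colon and between 30.74 and 70.24 in stomach. Spread within a tissue was small beside the gap of 7.09 between the tissues (SE 0.15, adjusted p = 1.03e-09), at least 84.7-fold higher in colon.

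Cldn3, a sealing claudin common in gut epithelium, lay at 12.47 and 12.10 in colon KO, 12.41 and 12.58 in colon HET, and 12.47 and 12.32 in colon WT. In stomach it lay at 4.31 and 5.18 in KO, 5.63 and 4.60 in HET, and 6.11 and 4.43 in WT. All stomach arrays were dim and scattered more than the colon arrays. Cldn3 was higher in colon by 7.35 (SE 0.30, adjusted p = 9.205e-08), at least 58.1-fold. The name of its probe set, 1451701_x_at, marks it as one that may also bind other transcripts, and a second probe set, 1426332_a_at, gave 6.96 (SE 0.18, adjusted p = 2.969e-09).

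Cldn4, a sealing claudin encoded beside Cldn3, varied within colon, with 9.48 and 8.62 in KO, 8.45 and 9.38 in HET, and 7.95 and 10.62 in WT. Its stomach levels were 4.17 and 4.86 in KO, 5.79 and 5.51 in HET, and 4.97 and 5.30 in WT, all dim. The lowest and the highest colon values were both from WT. Cldn4 was higher in colon by 3.98 (SE 0.42, adjusted p = 5.594e-05), at least 5.86-fold.

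Cldn23, a claudin of differentiated surface cells of the intestine, had 10.77 and 10.44 in colon KO, 10.86 and 11.13 in colon HET, and 10.29 and 9.85 in colon WT. Stomach had 4.35 and 4.14 in KO, 4.11 and 5.12 in HET, and 4.24 and 6.41 in WT. Stomach WT 2 was the highest stomach array but was dim like the rest. The difference was 5.83 (SE 0.34, adjusted p = 1.165e-06), at least 16.3-fold higher in colon.

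Cldn18, the acid barrier claudin of the stomach, ran the other way, with 4.49 and 5.51 in colon KO, 5.08 and 5.49 in colon HET, and 4.84 and 5.42 in colon WT. In stomach it had 12.16 and 12.43 in KO, 12.13 and 12.16 in HET, and 12.19 and 12.43 in WT. Every colon array was dim and the 6 stomach arrays lay within a narrow band. As deposited, its intensities were 5.971 to 27.85 in colon and 4332 to 5656 in stomach. Cldn18 was lower in colon at -7.11 (SE 0.19, adjusted p = 3.892e-09), at least 52.6-fold. Its second probe set gave -8.46 (SE 0.09, adjusted p = 1.273e-11). The gene is known for alternative first exons used in lung and in stomach, and neither probe set could be placed relative to the 2 starts shown above.

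Cldn8, which tightens the distal colon against sodium, was the most variable member in colon. It read 8.29 and 11.18 in colon KO, 8.34 and 9.18 in colon HET, and 9.61 and 6.92 in colon WT. Stomach arrays were closer together, at 8.47 and 8.03 in KO, 7.67 and 8.08 in HET, and 8.52 and 8.16 in WT. The tissues overlapped, with colon KO 2 the highest array and colon WT 2 the lowest, below every stomach array. The difference of 0.77 (SE 0.55, 95% interval -0.48 to 2.01) did not pass (adjusted p = 0.2782). Without the array labelled colon WT 2, Cldn8 was higher in colon by 1.21 (adjusted p = 0.04769), and without colon KO 2 its difference was 0.29 (adjusted p = 0.6266).

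Cldn5, the main claudin of endothelium and of the blood-brain barrier, read 6.90 and 6.78 in colon KO, 6.79 and 6.44 in colon HET, and 7.01 and 6.84 in colon WT. In stomach it read 6.07 and 6.23 in KO, 6.20 and 6.69 in HET, and 6.91 and 6.60 in WT. Values in both tissues straddled the limit and overlapped. The difference was 0.34 (SE 0.15, adjusted p = 0.08994) and did not pass. The 12 endothelial marker genes averaged 6.74 to 7.13 on colon arrays and 7.25 to 7.60 on stomach arrays. In colon 5 of them were lower and none higher, beside 27.3% lower and 21.4% higher over all genes tested.

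Cldn1, a claudin required for the water barrier of skin and expressed in squamous epithelium, was dim on every array and was not tested. It ran between 5.01 and 5.76 in colon and between 4.94 and 5.90 in stomach, and its second probe set was dim on all 12 arrays too. The mean of 13 squamous forestomach genes was 5.39 and 5.54 in stomach KO, 8.54 and 6.32 in stomach HET, and 7.08 and 7.60 in stomach WT. Cldn1 read 4.94 and 5.82 in stomach KO, 5.90 and 5.82 in stomach HET, and 5.57 and 4.97 in stomach WT, all under the limit, where the order of values has no meaning. The part of squamous tissue in these values was not tested.

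Within each genotype the same 7 claudins passed between the tissues, in the same direction as in the mean over genotypes. Since these 7 cleared the limit in 1 tissue alone, the shares of all genes below are not a like reference. The counts are again read as a description of where these claudins were expressed. In KO, where 22.9% of all genes tested passed (10.5% higher, 12.4% lower), 6 claudins were higher and 1 lower. Cldn7 was at least 82.0-fold higher, Cldn23 at least 16.8-fold higher, Cldn4 at least 5.72-fold higher and Cldn18 at least 54.3-fold lower in colon. In HET, where 22.2% passed (10.3% higher, 12% lower), the counts were again 6 and 1 and these folds were at least 76.7, 22.1, 5.23 and 48.9, in the same directions. In WT, where 27.3% passed (10.9% higher, 16.4% lower), the counts were also 6 and 1 and the folds were at least 96.4, 11.6, 6.73 and 54.8. Without the array labelled colon WT 2, all 7 still passed in the mean of genotypes, with differences of 5.04 for Cldn2, 3.54 for Cldn4, 5.89 for Cldn23 and -7.20 for Cldn18. The HET comparison holds only arrays whose processing notes name the same method. Cldn4 was the least secure of the 7, with a HET difference of 3.27 (SE 0.73, adjusted p = 0.01157). That call was lost without colon HET 2 (adjusted p = 0.09114), without stomach HET 1 (0.05113) and without stomach HET 2 (0.07389).

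**Figure D2:**
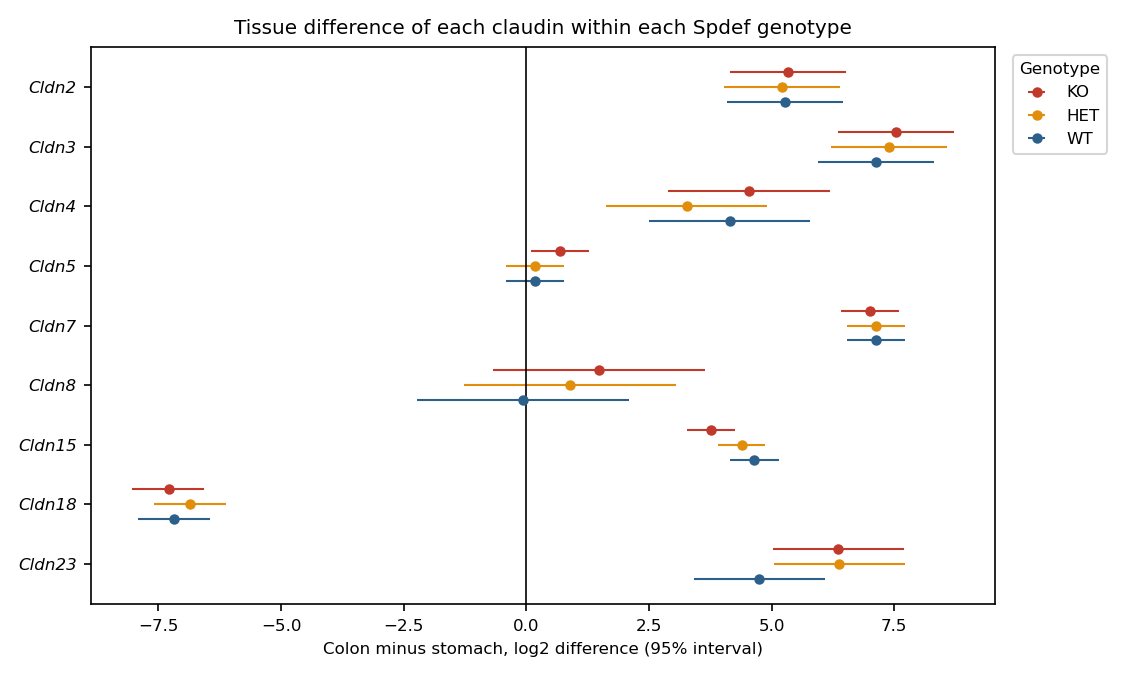
Colon minus stomach difference in log2 level for the 9 claudins tested, within KO, HET and WT from top to bottom for each gene. Points are differences of means of 2 arrays a group and lines are 95% intervals from the fit to all 12 arrays. 6 claudins lie well to the right of 0 in each genotype, Cldn18 well to the left, and Cldn5 and Cldn8 near 0.

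The claudins were set beside the other genes of their junction. Of 33 other tight junction genes listed, 26 had a probe set and were tested, and 12 were higher and 6 lower in colon, with a median difference of 0.22. Over all genes tested, 48.8% passed, 21.4% higher and 27.3% lower in colon. Ildr1, a protein of tricellular contacts, was higher by at least 6.16-fold, and Marveld3, a membrane protein related to occludin, by at least 3.88-fold. Epcam, an adhesion protein that binds and stabilises claudin 7, was higher by 2.07 (SE 0.10, adjusted p = 3.797e-07), and Cxadr, an adhesion receptor, by 1.32 (SE 0.16, adjusted p = 0.0001383). Amotl2, a scaffold of the angiomotin family, was lower at -1.57 (SE 0.12, adjusted p = 6.902e-06). Tjp1, the scaffold ZO-1 to which claudins bind, did not pass at -0.18 (SE 0.07, adjusted p = 0.06817), nor did occludin, Ocln, at 0.35 (SE 0.16, adjusted p = 0.09423).

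Of 15 adherens junction and desmosome genes, 12 were tested, of which 5 were higher and 2 lower in colon, with a median of 0.08. The shares over all genes tested were 21.4% higher and 27.3% lower, 48.8% in all. The adhesion molecules Nectin3 and Nectin2 were higher by 2.20 and 0.75, the desmosomal cadherin Dsg2 by 0.61 and beta-catenin, Ctnnb1, by 0.54, while plakoglobin, Jup, was lower at -0.46. The 9 claudins outside the 10 that had a probe set (Cldn6, Cldn9, Cldn10, Cldn11, Cldn13, Cldn14, Cldn16, Cldn19 and Cldn34c1) lay between 4.08 and 6.65. Of their 108 values, 1 reached the limit, and none of these genes was tested.

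**Figure D3:**
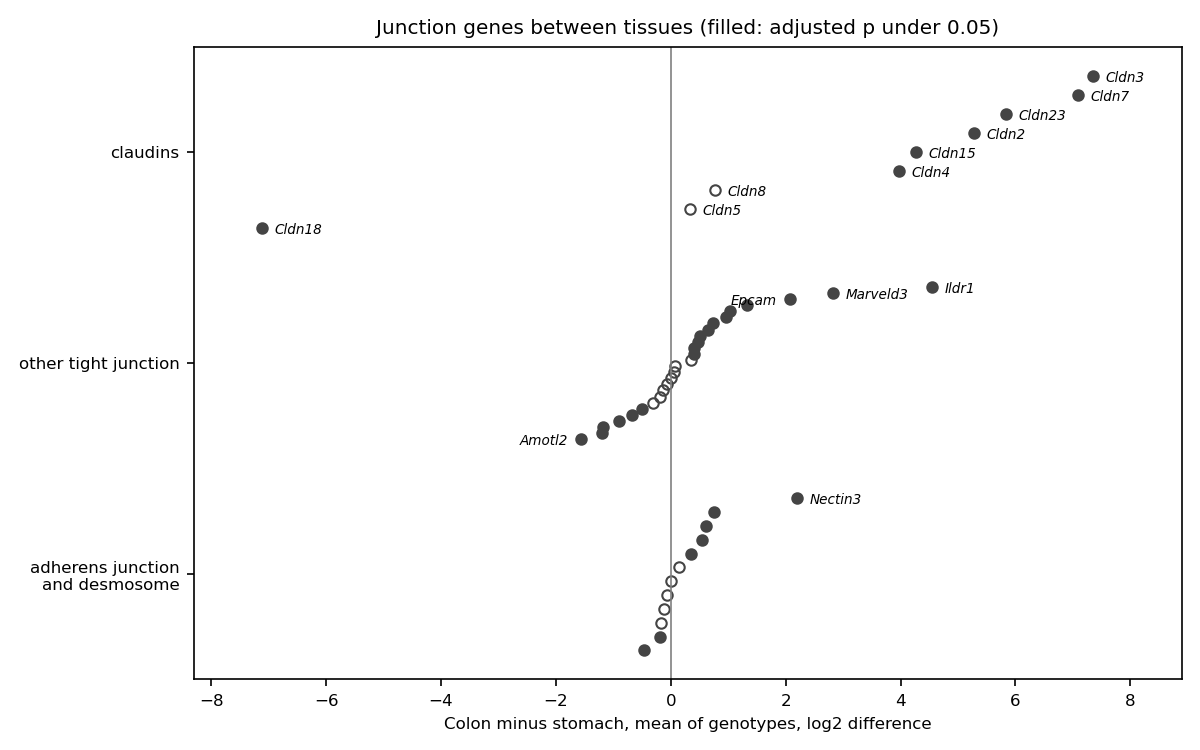
Colon minus stomach difference in log2 level, mean of genotypes, for the 9 claudins, 26 other tight junction genes and 12 adherens junction and desmosome genes tested. Each point is a gene, ordered within its list, and filled points passed an adjusted p of 0.05. The claudins reach -7.11 and 7.35, and the other tight junction genes run between -1.57 and 4.55, where points set against a dim group are fitted values and the text gives their folds as bounds.

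The second question was whether loss of Spdef changed claudin expression. None of the members passed a test between genotypes in either tissue. In colon, 8 claudins could be tested for KO minus WT, and 0 passed (limma), while 0.0505% of all genes passed. At an unadjusted p under 0.05 there were 0 of the 8 claudins and 11.2% of all genes. For colon HET minus WT and colon KO minus HET the counts were also 0 of 8, and 0.0253% of all genes passed in each. At an unadjusted p under 0.05 these had 0 of 8 claudins each, beside 9.62% and 4.11% of all genes. With 2 arrays a group the intervals were wide. The SE of a gene also pools its spread over all 6 groups, so dim stomach arrays enter the colon intervals. The standard deviations of Cldn3, for example, were 0.11 to 0.26 in colon groups and 0.61 to 1.18 in stomach groups. The 95% interval lay within a change of 2-fold either way for 3 of the 8 claudins, Cldn5, Cldn7 and Cldn15. A test that did not pass does not show that levels were equal.

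Among the pore-forming claudins in colon, Cldn15 was 10.29 and 10.46 in KO, under both WT arrays at 10.73 and 10.89. The difference was -0.44 (SE 0.22, 95% interval -0.93 to 0.05, adjusted p = 0.4607), and HET minus WT was -0.23 (SE 0.22). The order of its colon means was WT, HET, KO, where HET did not overlap WT and did overlap KO. The Cldn2 difference, KO minus WT, was -0.26 (SE 0.52, 95% interval -1.44 to 0.91). It was 0.44 without the array labelled colon WT 2, whose Cldn2 level was the highest, and -0.97 without colon WT 1. With all arrays, the second Cldn2 probe set gave -0.99 (SE 0.54, limma adjusted p = 0.4987).

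Among the sealing claudins in colon, Cldn8 had the largest KO minus WT difference, 1.47 (SE 0.96, 95% interval -0.69 to 3.62, adjusted p = 0.5548). That value rested on single arrays, being 0.02 without colon KO 2, 0.12 without the array labelled colon WT 2, 2.83 without colon WT 1 and 2.91 without colon KO 1. Cldn23 was 10.77 and 10.44 in KO, above 10.29 and 9.85 in WT, with a difference of 0.53 (SE 0.59, 95% interval -0.80 to 1.87), and its HET minus WT difference was 0.93 (SE 0.59). The 3 genotypes did not overlap for Cldn23, in the order HET, KO, WT.

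Cldn7 was also apart, lower in KO at -0.23 (SE 0.26) and lower in HET at -0.33 (SE 0.26). Its 3 genotypes did not overlap either, in the order WT, KO, HET. The share of all genes with 3 genotypes apart was not counted. Cldn3 differed by -0.11 (95% interval -1.29 to 1.07) and Cldn5 by -0.09 (95% interval -0.68 to 0.50) between KO and WT, with overlapping arrays. The second Cldn3 probe set gave -0.1 (SE 0.31) for KO minus WT. In all, 3 of 8 claudins were apart between KO and WT against 31.1% of all genes, 4 of 8 between HET and WT against 37.4%, and 2 of 8 between KO and HET against 35.1%. These shares lie near those of all genes.

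The values of Cldn4 also depended on which WT array was used. Its KO minus WT difference was -0.23 (SE 0.73), 1.09 without the array labelled colon WT 2 and -1.58 without colon WT 1 (adjusted p = 0.06545). Its HET minus WT difference was -0.37 (SE 0.73) and 0.96 without colon WT 2. Without colon WT 1 it was -1.71 and passed (adjusted p = 0.04638), where the only WT array left was the one labelled colon WT 2 and 13.6% of all genes passed. In KO or HET minus WT without colon WT 2, for any claudin, the only WT array left was colon WT 1. For colon WT 1 the processing notes name a different method than for the other colon arrays. If the notes hold, method and genotype cannot be told apart in those values. The difference KO minus HET uses no WT array, though its SE comes from the fit to all 12 arrays. It was 0.13 for Cldn4 (SE 0.73) and 0.08 for Cldn2 (SE 0.52). By the second Cldn2 probe set it was -0.34 (SE 0.54).

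**Figure D4:**
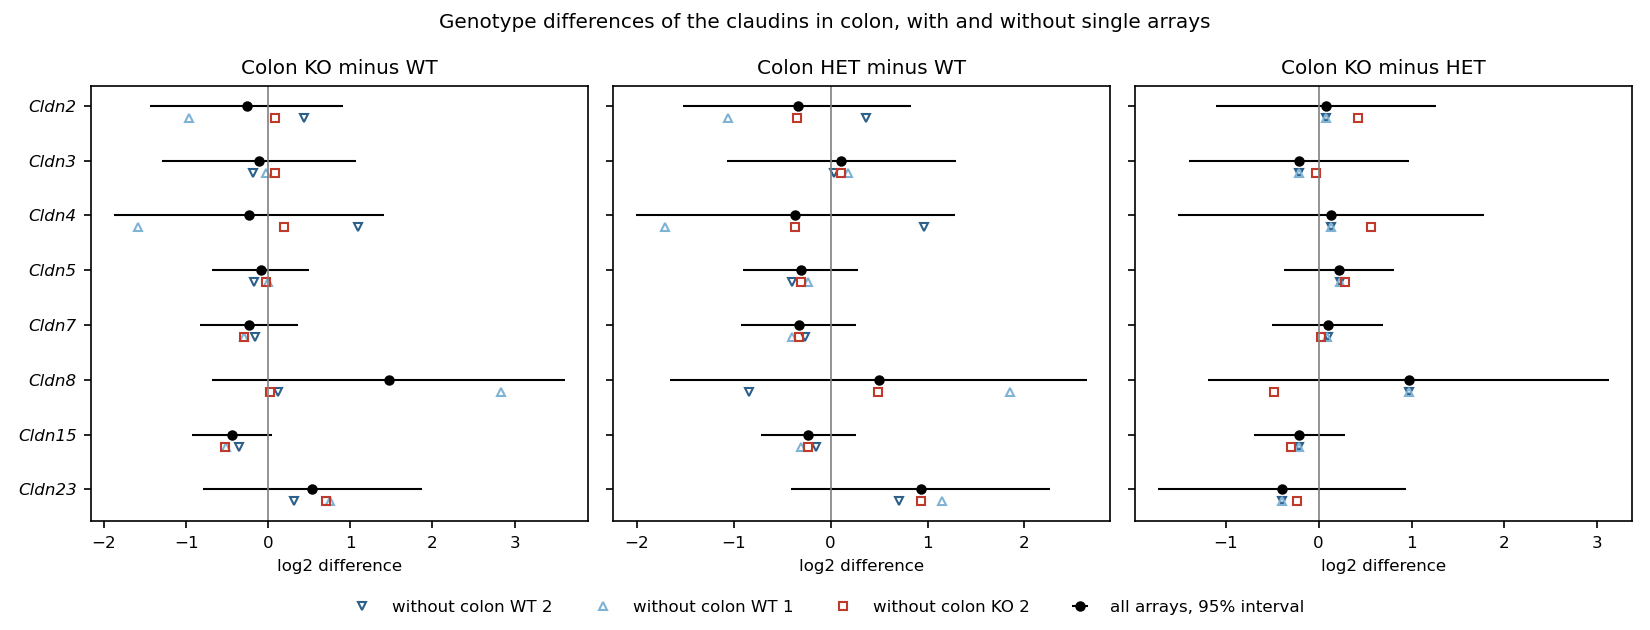
Genotype differences in log2 level in colon for the 8 claudins tested there, as KO minus WT, HET minus WT and KO minus HET. Black points and lines are differences with 95% intervals from all arrays, and open markers are the differences with 1 array left out. All intervals cross 0, and leaving out a WT array turns the sign of Cldn4 and Cldn2 between KO and WT.

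The array labelled colon WT 2 lay outside the other 5 colon arrays for 6 of the 8 claudins expressed in colon. It was above them for Cldn2, Cldn4, Cldn7 and Cldn15 and below them for Cldn8 and Cldn23, and inside their range for Cldn3 and Cldn5. Over all genes tested in colon, 22.8% lay above and 34.1% below on that array, 56.9% in all. Colon KO 2 lay above the other 5 for Cldn8 and below them for Cldn3, and was inside for the other 6, against 41.9% of all genes outside (23.5% above and 18.4% below). The small intestine and colonocyte genes moved with the first array. The B and plasma cell, pancreas, adipose and small intestine genes moved with the second. The part of these genes in the claudin values was not tested.

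**Figure D5:**
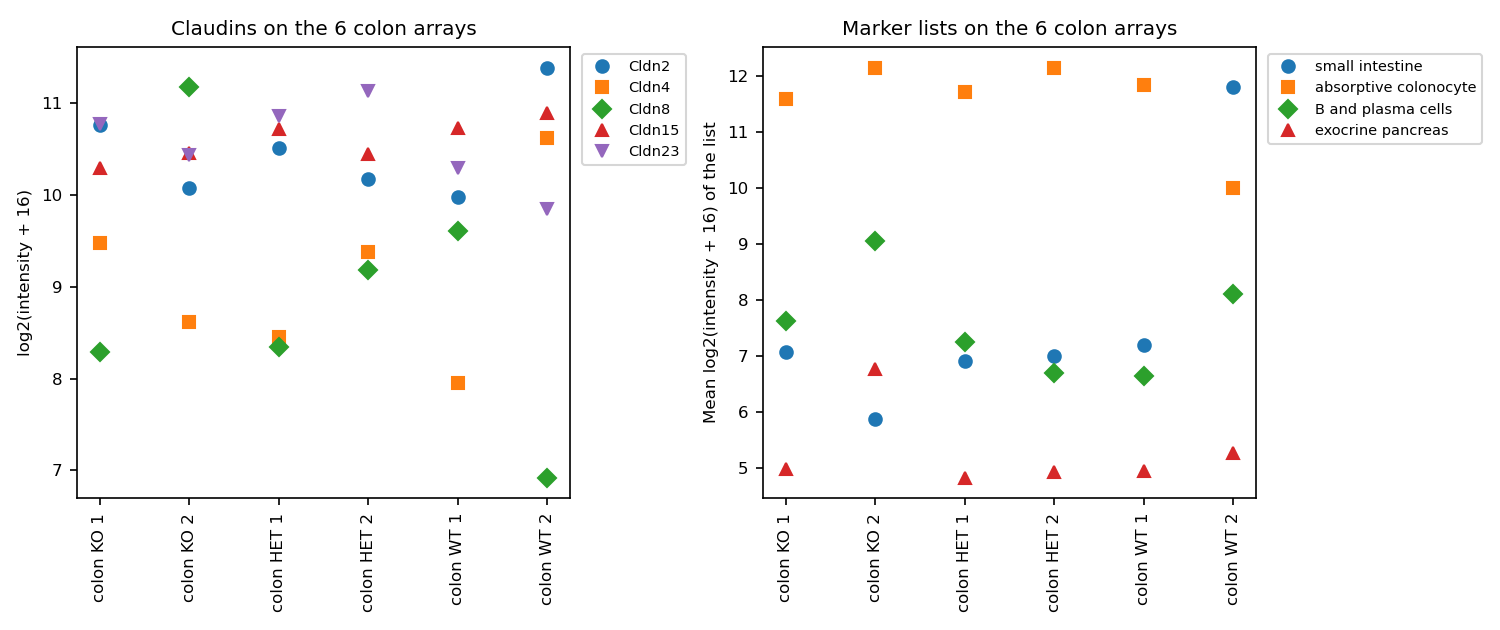
Left, levels of 5 claudins, log2(intensity + 16), on the 6 colon arrays. Right, mean levels of 4 marker gene lists on the same arrays. On colon WT 2 the small intestine list stands at 11.81 and Cldn2 at 11.39, the highest of each, while Cldn8 is lowest at 6.92. On colon KO 2 Cldn8 is highest at 11.18.

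In stomach, 3 claudins could be tested between genotypes, and 0 passed in KO minus WT, HET minus WT or KO minus HET (limma), where 0.0127%, 0% and 0.0127% of all genes passed. At an unadjusted p under 0.05 the counts were 1, 0 and 0 of 3, beside 3.56%, 2.2% and 1.86% of all genes. Cldn18 was 12.16 and 12.43 in KO and 12.19 and 12.43 in WT, which overlapped. Its KO minus WT difference was -0.01 (SE 0.32, 95% interval -0.74 to 0.72), and the second probe set gave 0.17 (SE 0.16). For Cldn8 the difference was -0.09 (SE 0.96), with overlapping arrays. These SEs pool the spread of all 6 groups, colon included. Standard deviations of Cldn18 were 0.02 to 0.19 in stomach groups and 0.29 to 0.72 in the dim colon groups. Those of Cldn8 were 0.26 to 0.31 in stomach groups and 0.59 to 2.04 in colon groups.

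Cldn5 was 6.07 and 6.23 in stomach KO, below 6.91 and 6.60 in stomach WT. Its difference was -0.61 (SE 0.26, 95% interval -1.20 to -0.02, unadjusted p = 0.04467 in limma), with an adjusted p of 0.9995. The KO arrays were dim, and the processing notes name a different method for both stomach KO arrays than for stomach WT. If the notes hold, method and genotype cannot be told apart there. Mean deposited intensity, with 2% trimmed at each end, was 496.43 and 497.08 in stomach KO and 496.1 and 496.65 in stomach WT. Whether the methods differed was not tested. Arrays were apart for 1 of 3 claudins in KO minus WT against 37.2% of all genes, for 2 of 3 in HET minus WT against 35.6%, and for 1 of 3 in KO minus HET against 32.1%.

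Whether the effect of genotype differed between the tissues was tested for 9 claudins, and 0 passed for KO minus WT (limma), where 0.0238% of all genes passed. For KO minus HET 0 of 9 passed, as did 0% of all genes. At an unadjusted p under 0.05 the counts were 1 and 0 of 9, beside 4.63% and 2.18% of all genes. The 1 was Cldn15, whose KO minus WT difference was lower in colon than in stomach by -0.88 (SE 0.31, 95% interval -1.57 to -0.19, unadjusted p = 0.01772, adjusted p = 0.8876 in limma), on stomach levels of which all but 1 were dim. For Cldn23 the value was 1.61 (SE 0.84, 95% interval -0.28 to 3.50), again on dim stomach levels. None of the other tight junction, adherens junction and desmosome genes passed in a genotype comparison either.

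The genes with the level patterns most like each claudin's were found by Pearson correlation over the 12 arrays, given as a description, since the arrays share tissues and the correlations follow the gap between them. Cldn7 was closest to Tff3 (r = 0.999), Ush1c and Muc13. Cldn15 was closest to Mfhas1 (0.996), Tff3 and Heph, and Cldn2 to Calml4 (0.995), Clec2h and Sat1. Cldn3 was closest to Gcg (0.994), Eps8 and Cdx1, Cldn23 to Lgals3 (0.987), Slc44a4 and Kcne3, and Cldn4 to Calm3 (0.982), Nectin3 and P2ry1. Cldn18 was closest to Anxa10 (0.998), Cblif and Pgc, all on the stomach side. Cldn8 was closest to Cebpd (0.931), Rab15 and Sae1, and Cldn5 to Rad50 (0.860), Sod3 and Nelfe.

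With tissue means subtracted and colon WT 2 left out, 11 arrays remained, and Cldn8, which was above the limit on all 12 arrays, was closest to Nhp2 (r = 0.965), Pprc1 and Mfsd4a. These were picked as the closest among all genes tested. Much of the Cldn8 spread lay in colon KO 2, at 11.18 against 8.29 to 9.61 on the other colon arrays kept. For the 7 claudins that passed between tissues, values in the tissue of dim mean lay under the limit on all arrays but 1, for Cldn15. No such correlation is given for them, nor for Cldn5, which was dim on 3 stomach arrays and 1 colon array.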

How the data were processed

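RNA of stomach and colon from Spdef KO, HET and WT mice was measured on 12 arrays, 2 a group. The authors deposited 1 linear intensity for each probe set. Per the submitters' processing notes, which give no version, MAS5 made 9 arrays and RMA made colon WT 1 and both stomach KO arrays. Mean intensity with 2% trimmed at each end lay between 496.09 and 497.45 over the 12 arrays, and whether the named methods differed was not tested. Isolation of the RNA with TRIzol from frozen tissue is per the labels' protocols. The number of arrays limits the precision, and since no label states separate animals, the p-values cover the spread between these samples only, which may be technical.

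Of 22716 probe sets, 90 controls were left out. Of the 22626 kept, 18003 had 1 gene in the platform annotation, 287 several and 4336 none, and 17977 symbols were updated by gene identifier. For each of the 11807 genes, the probe set of highest mean stood for the gene. Values were taken as log2(intensity + 16), quantile normalized, and fitted with limma 3.58.1 (R 4.3.3; lmFit, eBayes with an intensity trend, 6 residual and 3.29 prior degrees of freedom), with 1 mean per group. Genes at or above the 40th percentile in 2 arrays of a tissue were tested: 7858 in stomach, 7913 in colon and 8393 in either. Benjamini-Hochberg adjustment ran over all genes of a comparison, with a threshold of 0.05. The code was tested on simulated data.

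The members, the lists and the tests were chosen with earlier results of these data known. The text names Spdef, the members, up to 5 genes of each junction list with the largest tissue difference among those past the threshold, and for each member the 3 genes most like it. Tjp1 and Ocln were named after their values were seen. Sequences come from RefSeq (GRCm38.p6). Over 15 pairs of groups the deviations of same-numbered arrays correlated between -0.321 and 0.292, with 1 pair over 0.1. Between colon and stomach of the same genotype the values were 0.077 in KO, 0.021 in HET and 0.067 in WT. These values do not show whether same-numbered samples share an animal, and the main fit used no pairing. Alternatives were another offset, normalization, filter, variance model, choice of probe sets and arrays, a replicate block, and each array left out.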

Additional observations from a re-analysis of the deposited data

How the results depend on the processing

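No claudin difference that had passed changed direction under any alternative. The number of claudins past the threshold between the tissues was 7 in the mean of genotypes (7 to 8 over 22 alternatives), 7 in KO (7 to 8), 7 in HET (6 to 7) and 7 in WT (7 in all 23 alternatives). The added calls were Cldn5 without an intensity trend (adjusted p = 0.04666 in the mean of genotypes and 0.04933 in KO) and Cldn8 without the array labelled colon WT 2 (adjusted p = 0.04769), and the lost call was Cldn4 in HET. For colon HET minus WT the count was 0, and 0 to 1 with an array left out, the 1 being Cldn4 without colon WT 1. The counts for the other genotype comparisons stayed at 0 under every alternative. The replicate block over the 12 arrays left the counts at 7 between tissues and at 0 between genotypes. Counts over all genes moved far more. Colon KO minus WT had 4 genes, 1 with an offset of 1 and 963 without colon WT 1. Colon HET minus WT had 2, 0 with an offset of 1 and 1068 without colon WT 1. The tissue comparison had 4095 genes, between 3442 and 4531 over the alternatives that kept 1 probe set per gene. Where an array was left out of a pair, the lone array was taken to vary like the other groups. Between genotypes, 2 arrays a group limit what could be seen, and the causes of the changed calls were not tested.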
